A study of Mus musculus with 6 samples.

Results

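The genes described here build, crosslink and remodel the extracellular matrix. They are 41 named genes, chosen by function, and all 41 have a row among the 23415 genes of the authors' deposited table. Liver RNA was compared between mice that lack Enpp7, the gene of alkaline sphingomyelinase, and wildtype mice. Both groups are on the C57BL/6 strain, with 3 libraries labelled K (read as knockout; animals 82, 84 and 85) and 3 labelled W (read as wildtype; animals 81, 83 and 90). The labels give no other allele, treatment, age or sex for either group. Whether the knockout affects the whole animal or 1 tissue is likewise not stated there.

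The liver holds little fibrous matrix. Hepatocytes release soluble fibronectin and the endostatin-bearing collagen XVIII, while stellate cells, portal fibroblasts and sinusoidal endothelial cells make most of the collagens, proteoglycans and laminins. In scarring, stellate cells turn into myofibroblasts that lay down collagens I and III, under the influence of transforming growth factor beta, and lysyl oxidases crosslink the new fibres. Matrix metalloproteinases cut the matrix, and the TIMP proteins inhibit them.

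None of the matrix genes was called different between knockout and wildtype liver. Expression is given in FPKM, a read density scaled for transcript length and library size, as 1 value per group. The deposited table holds no value per mouse, so no spread between mice can be shown. Ratios are log2 of knockout over wildtype with the standard error (SE) that the authors' test statistic implies, which is the error of their model. Genes are named as called where the authors' deposited table gives a q under 0.05. The authors tested 34 of the 41 genes and marked the other 7 as too low to test. Of the 34, 0 were called, where 1.08% of the 11515 genes tested were. At an unadjusted p under 0.05 there were 4 of 34, against a background of 5.29%. Of these, 2 had higher values in knockout livers (background 2.82%) and 2 had lower values (background 2.47%).

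Before the values, the start regions of 4 members are shown. Col4a1 and Col4a2, the chains of basement membrane collagen IV, are transcribed away from each other from a common start region, and their ratios are compared below. Timp3 and Col15a1 had the smallest unadjusted p of all members. Each window runs from 250 bases before to 50 bases after the RefSeq start on GRCm38.p6, the assembly also called mm10, 5′ to 3′ on the gene's own strand. In the Col4a1 and Col4a2 windows the capitals mark the 78 bases that both windows hold, read on opposite strands. In the Timp3 window the capitals mark GC boxes, the core motif bound by Sp1, which lie on the other strand and so read CCGCCC, and the Col15a1 window holds 0.

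Col4a1 (chr8:11312777-11313076, minus strand): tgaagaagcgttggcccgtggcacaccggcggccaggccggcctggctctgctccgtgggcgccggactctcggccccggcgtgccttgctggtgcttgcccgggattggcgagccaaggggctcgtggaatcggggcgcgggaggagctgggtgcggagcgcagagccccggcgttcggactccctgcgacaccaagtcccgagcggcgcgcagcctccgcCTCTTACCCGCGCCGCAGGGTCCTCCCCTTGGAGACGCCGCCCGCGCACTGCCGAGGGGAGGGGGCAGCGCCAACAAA

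Col4a2 (chr8:11312555-11312854, plus strand): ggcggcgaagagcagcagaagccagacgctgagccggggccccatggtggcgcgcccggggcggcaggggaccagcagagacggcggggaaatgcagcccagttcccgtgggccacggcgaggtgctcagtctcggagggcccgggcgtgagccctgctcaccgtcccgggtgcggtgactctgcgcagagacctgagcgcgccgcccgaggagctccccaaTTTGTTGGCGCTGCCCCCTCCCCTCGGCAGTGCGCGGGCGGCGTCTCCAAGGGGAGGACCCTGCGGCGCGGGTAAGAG

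Timp3 (chr10:86300162-86300461, plus strand): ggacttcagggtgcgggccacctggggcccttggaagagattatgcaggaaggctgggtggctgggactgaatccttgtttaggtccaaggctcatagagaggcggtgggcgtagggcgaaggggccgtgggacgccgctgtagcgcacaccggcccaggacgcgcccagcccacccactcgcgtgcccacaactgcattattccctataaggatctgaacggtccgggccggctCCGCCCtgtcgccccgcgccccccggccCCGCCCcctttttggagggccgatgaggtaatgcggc

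Col15a1 (chr4:47207762-47208061, plus strand): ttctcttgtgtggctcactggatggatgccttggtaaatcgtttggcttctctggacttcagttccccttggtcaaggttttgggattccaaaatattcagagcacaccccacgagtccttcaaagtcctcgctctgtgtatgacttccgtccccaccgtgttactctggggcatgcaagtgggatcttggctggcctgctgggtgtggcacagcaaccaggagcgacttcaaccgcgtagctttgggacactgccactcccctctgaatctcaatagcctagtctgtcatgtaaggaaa

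RefSeq windows were found for 25 of the 41 genes. The GC box, spelled GGGCGG and searched on both strands, occurred in a window of 19 of these 25 genes, or 76%. Over all 27025 genes with a window the share was 38.2%. The TATA box, spelled TATAAA and searched likewise, occurred for 3 of 25 genes, or 12%, against 15.7% of all genes. Neither motif can overlap the other. The windows of Col4a1 and Timp3 had a GC content of 74% and 67%, that of Col15a1 52.3%, and the median over all windows was 52.7%. These matches describe letters and not bound sites.

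Matrix genes covered a wide range of levels in both groups. Fn1, fibronectin, which links cells to collagen fibres, was highest at 182 FPKM in knockout livers and 172 FPKM in wildtype livers, ranks 524 and 530 among the genes tested. Col18a1, the collagen that carries endostatin, followed at 173 and 151 FPKM. These 2 genes held 62.1% of the summed level of the 41 genes in knockout livers and 58.5% in wildtype livers. Another 6 genes had a mean of both groups between 10 and 100 FPKM, 20 lay between 1 and 10 FPKM, and 13 lay below 1 FPKM. The whole set summed to 572 FPKM in knockout livers and 553 FPKM in wildtype livers.

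**Figure D1:**
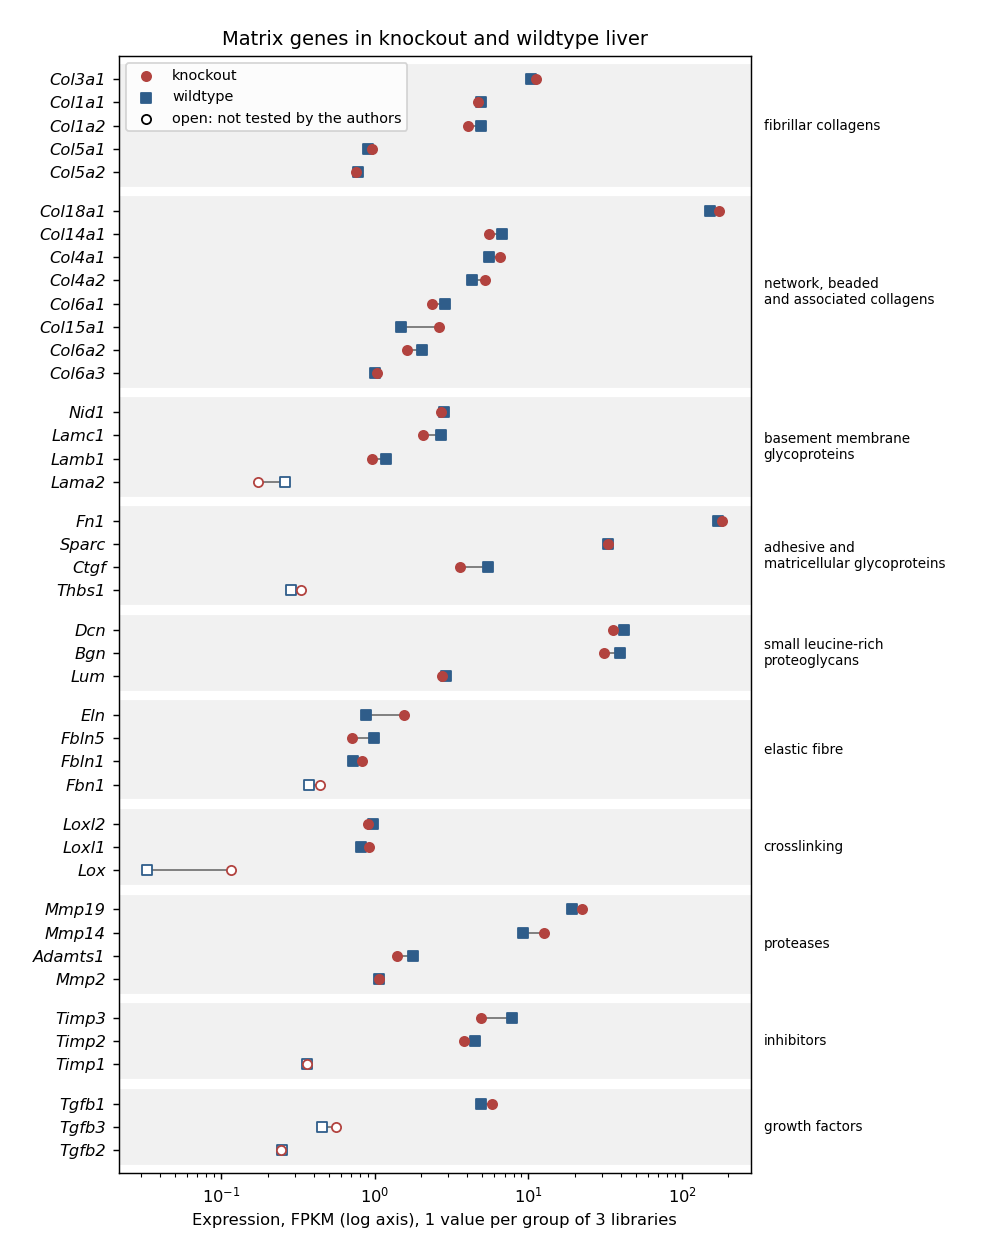
Level of each of the 41 matrix genes in FPKM on a log axis, 1 value per group of 3 libraries, ordered by role. Circles are knockout and squares wildtype, and open symbols are the 7 genes the authors did not test. Fn1 and Col18a1 stand above 100 FPKM in both groups, and the widest gaps among filled symbols are those of Col15a1, Eln, Ctgf and Timp3.

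The fibrillar collagens, which form the load-bearing fibres, had ratios of both signs (3 of 5 below 0, and 5 of 5 with the summed FPKM of the groups made equal), and 0 of the 5 had an unadjusted p under 0.05. Making the sums equal put 8841 of all 11456 tested genes with a finite ratio below 0. Col3a1, of the fine reticular fibres, was at 11.2 FPKM in knockout livers and 10.5 FPKM in wildtype livers (log2 ratio 0.10 ± 0.23). Col1a1 and Col1a2, the chains of collagen I, were at 4.72 and 4.05 FPKM against 4.93 and 4.94 FPKM. The level of Col1a1 over that of Col1a2 was 1.17 in knockout livers and 0.998 in wildtype livers. That shift of 0.23 on the log2 scale is smaller than its error of 0.35, taken as if the errors of both genes were independent. Col5a1 and Col5a2, chains of the collagen V that regulates fibre width, lay below 1 FPKM in both groups. For all 5 fibrillar collagens the 95% interval of the ratio lay within 2-fold either way.

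Among the 8 collagens of networks, beaded filaments and fibre surfaces, Col15a1 had the widest difference. Col15a1 encodes a collagen of basement membrane zones related to collagen XVIII, on chromosome 4 from 47208012 to 47313165 (mm10). It stood at 2.60 FPKM in knockout livers and 1.48 FPKM in wildtype livers. The log2 ratio was 0.82 ± 0.29 (95% interval 0.25 to 1.39), with an unadjusted p of 0.00498 and q = 0.241 in the authors' deposited table. Its relative Col18a1 had a ratio of 0.20 ± 0.34.

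Col4a1 and Col4a2, whose common start region is printed above, had ratios of 0.22 ± 0.23 and 0.29 ± 0.24. Their levels were 6.49 and 5.20 FPKM in knockout livers against 5.57 and 4.27 FPKM in wildtype livers. Col4a1 over Col4a2 was 1.25 in knockout livers and 1.30 in wildtype livers, a shift of -0.06 ± 0.33. In the GENCODE M21 annotation their transcripts overlap by 22 bases. The deposited loci do not overlap, with Col4a1 ending at 11312826 and Col4a2 starting at 11312829. The collagen VI chains, which form beaded filaments, were at 2.35 FPKM (Col6a1), 1.62 FPKM (Col6a2) and 1.04 FPKM (Col6a3) in knockout livers. The wildtype values were 2.87, 2.01 and 0.997 FPKM. Col14a1, which coats collagen fibres, was at 5.53 against 6.72 FPKM. None of these 6 genes had an unadjusted p under 0.05.

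The basement membrane glycoproteins all had ratios below 0, and none reached an unadjusted p under 0.05. Lamc1, a laminin gamma chain, was at 2.06 FPKM in knockout livers and 2.69 FPKM in wildtype livers (log2 ratio -0.38 ± 0.26). Lamb1, a laminin beta chain, was at 0.956 against 1.17 FPKM, and Nid1, nidogen, which joins laminin to collagen IV, at 2.70 against 2.81 FPKM. Lama2, a laminin alpha chain, was not tested, at 0.175 against 0.261 FPKM.

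Of the adhesive and matricellular proteins, Ctgf had the lower value in knockout livers. Ctgf (now Ccn2) encodes connective tissue growth factor, a secreted protein induced by transforming growth factor beta, on chromosome 10 from 24595442 to 24598682 (mm10). It stood at 3.56 FPKM in knockout livers and 5.43 FPKM in wildtype livers. The log2 ratio was -0.61 ± 0.30 (95% interval -1.19 to -0.03), with an unadjusted p of 0.0389 and q = 0.853 in the authors' deposited table. Exons of another gene on the opposite strand, Gm15270, cover 23.2% of its exonic bases in the annotation, and the labels do not say whether libraries kept strand. Fn1 had a ratio of 0.08 ± 0.38. Sparc, osteonectin, which binds collagen, stood at 33.0 FPKM in both groups (95% interval of the fold 0.737 to 1.36). Thbs1, thrombospondin, which activates latent transforming growth factor beta, was not tested, at 0.331 against 0.286 FPKM.

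The small leucine-rich proteoglycans, which bind collagen fibres, had ratios below 0 in 3 of 3, none at an unadjusted p under 0.05. Dcn, decorin, was at 35.5 FPKM in knockout livers and 41.8 FPKM in wildtype livers. Bgn, biglycan, was at 31.0 against 39.2 FPKM (log2 ratio -0.34 ± 0.22), and Lum, lumican, at 2.74 against 2.90 FPKM.

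In the elastic fibre group Eln stood higher in knockout livers. Eln encodes elastin, the rubber-like core of elastic fibres, on chromosome 5 from 134702596 to 134747254 (mm10). Its value was 1.54 FPKM in knockout livers and 0.869 FPKM in wildtype livers. The log2 ratio was 0.83 ± 0.37 (95% interval 0.11 to 1.55), with an unadjusted p of 0.0246 and q = 0.690 in the authors' deposited table. With 1 FPKM added to both values the ratio was 0.44. Of the fibulins in these fibres, Fbln5 was at 0.707 against 0.989 FPKM and Fbln1 at 0.829 against 0.721 FPKM. Fbn1, fibrillin, was not tested, at 0.439 against 0.375 FPKM.

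The crosslinking enzymes stood below 1 FPKM in both groups. Loxl1 was at 0.918 FPKM in knockout livers and 0.812 FPKM in wildtype livers, and Loxl2 at 0.907 against 0.976 FPKM. Lox was not tested, at 0.116 against 0.0330 FPKM, and its ratio of 1.82 ± 1.28 is within 2 errors of 0.

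Among the proteases Mmp19, a metalloproteinase of many tissues, and Mmp14, a membrane-bound collagenase, were the highest. Mmp19 was at 22.2 FPKM in knockout livers and 19.1 FPKM in wildtype livers. Exons of Tmem198b on the opposite strand cover 22.3% of its exonic bases, and Tmem198b itself stood at 14.6 and 11.8 FPKM. Mmp14 was at 12.6 against 9.17 FPKM (log2 ratio 0.46 ± 0.24, unadjusted p 0.0557, q = 0.988 in the authors' deposited table). Mmp2, gelatinase A, was at 1.06 against 1.07 FPKM, and Adamts1, which cuts proteoglycans, at 1.40 against 1.78 FPKM.

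Timp3 had the lowest ratio of the 34 tested genes. It encodes a metalloproteinase inhibitor bound to the matrix, and its deposited locus on chromosome 10 from 86048746 to 86498896 (mm10) takes in Syn3, inside which it lies on the opposite strand. Timp3 stood at 4.93 FPKM in knockout livers and 7.78 FPKM in wildtype livers. The log2 ratio was -0.66 ± 0.25 (95% interval -1.15 to -0.17), with an unadjusted p of 0.00865 and q = 0.347 in the authors' deposited table. Scaling both groups to the same summed FPKM took it past the threshold (log2 ratio -0.85, q = 0.0424). That scaling raised the calls over all tested genes from 124 to 189. Its sums lack albumin (Alb), listed at 0 in both groups because its locus had too many reads to process. Syn3 exons cover 21.3% of Timp3's exonic bases, and Syn3 was at 0.289 and 0.319 FPKM. Timp2, the inhibitor that also brings pro-MMP2 to MMP14, was at 3.82 against 4.48 FPKM. The level of Mmp14 over that of Timp2 was 3.31 in knockout livers and 2.05 in wildtype livers, a shift of 0.69 ± 0.36 in a pair chosen with the values known. Timp1 was not tested, at 0.363 against 0.359 FPKM with an error of 3.64 on the log2 scale, so that its ratio says nothing about a change.

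Of the growth factors Tgfb1, the isoform best known for driving matrix synthesis, was tested. It was at 5.78 FPKM in knockout livers and 4.92 FPKM in wildtype livers (log2 ratio 0.23 ± 0.28). Tgfb2 and Tgfb3 were not tested, at 0.245 and 0.557 FPKM against 0.250 and 0.452 FPKM.

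Read together, the 34 tested genes had a median log2 ratio of -0.05, where the median over all tested genes was 0.00 (-0.0012). Their ratios ran from -0.66 (Timp3) to 0.83 (Eln). Ratios lay below 0 for 20 of the 34, or 58.8%, against 50.1% of all tested genes. For 28 of the 34 the 95% interval lay within 2-fold either way, where the background was 74.2%. The 6 whose interval reached past 2-fold were Col15a1, Ctgf, Eln, Fbln1, Fbln5 and Timp3. Errors of single genes ran from 0.22 to 0.44, and the smallest ratio of any gene called in the whole table was 0.78 in size. Scaling both groups to the same summed FPKM shifts the median of all tested genes by -0.19, and the median of the 34 to -0.25 with 25 ratios below 0. That scaling put 8841 of the 11456 tested genes with a finite ratio below 0.

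**Figure D2:**
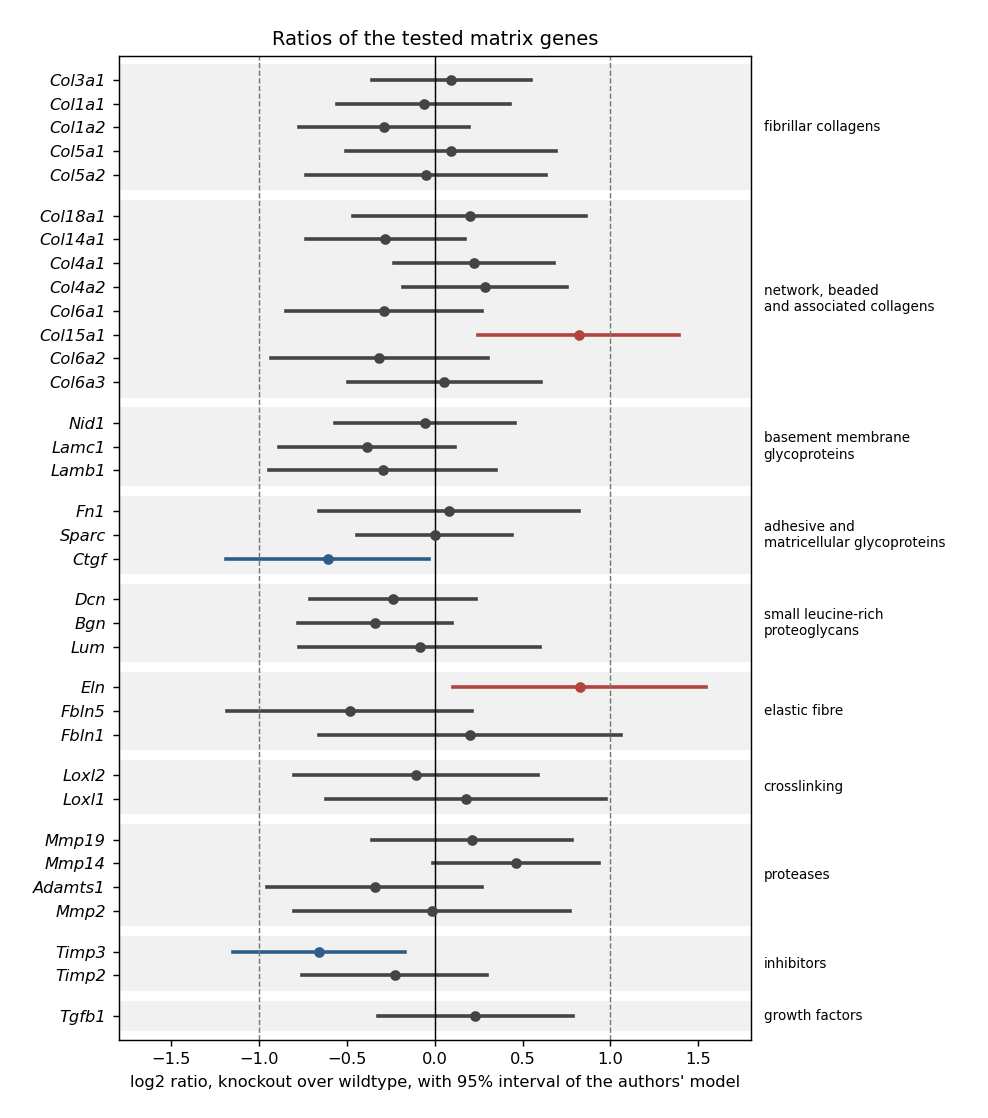
Log2 ratio of knockout over wildtype for the 34 tested matrix genes, with the 95% interval from the authors' model and dashed lines at 2-fold either way. Red marks an unadjusted p under 0.05 with a higher knockout value (Col15a1, Eln) and blue one with a lower value (Ctgf, Timp3), while the q of each is above 0.05.

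A wider list of 198 other matrix genes, chosen with results of these data known, was read in the same way. The authors tested 108 of them, and 1 was called, against the background of 1.08%. That gene was Spon2, spondin 2, a secreted matrix protein that also acts in innate immunity, on chromosome 5 from 33213518 to 33218238 (mm10). It rose from 2.23 FPKM in wildtype livers to 5.54 FPKM in knockout livers (log2 ratio 1.31 ± 0.33), and its q was 0.00866 in the authors' deposited table. The median ratio of the 108 was -0.01, with 55 below 0.

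Next in line was Col27a1, a fibrillar collagen of cartilage, at 3.67 FPKM in knockout livers and 6.41 FPKM in wildtype livers. Its log2 ratio was -0.80 ± 0.23, with q = 0.0502 in the authors' deposited table. It did not pass with no filter on low values (q = 0.101) or with the median of all genes set to 0 (q = 0.0512). It passed as lower with q recomputed over genes of at least 1 FPKM (q = 0.0462), after quantile normalization (q = 0.0498) and with the summed FPKM of the groups made equal (q = 0.00242). The other tested collagens of the wider list were Col5a3, at 6.32 against 4.19 FPKM (unadjusted p 0.0120), Col13a1 and Col16a1.

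Of the 108 tested genes of the wider list 9 had an unadjusted p under 0.05 (background 5.29%). Of these, 3 were higher in knockout livers (background 2.82%) and 6 lower (background 2.47%). Beyond Spon2, Col27a1 and Col5a3 they were another 6 genes. Lower values in knockout livers were those of Reln, reelin, at 2.13 against 3.43 FPKM, Ecm1 at 39.1 against 55.7 FPKM, Tnxb, a tenascin, at 1.22 against 1.83 FPKM, Fmod, fibromodulin, at 0.494 against 1.02 FPKM, and P4ha1, a collagen prolyl hydroxylase, at 3.06 against 4.62 FPKM. The higher one was Ctss, cathepsin S, a lysosomal protease of macrophages, at 44.1 against 27.5 FPKM. The q of these 6 genes lay between 0.201 and 0.827 in the authors' deposited table. Reln passed as lower once the summed FPKM of the groups was made equal (q = 0.0174).

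By role, collagen processing enzymes had a median of 0.03 over 15 tested genes, which was -0.16 with equal summed FPKM, and other basement membrane genes -0.27 over 8 (-0.46 with equal summed FPKM), where Hspg2, perlecan, had the smallest p at 1.97 against 2.39 FPKM. Genes of transforming growth factor beta signalling had a median of -0.22, with 11 of 14 ratios below 0 and 0 called. With equal summed FPKM the median was -0.42 with 13 below 0, where 8841 of all 11456 finite ratios were below 0. The smallest p in this role was that of the receptor Tgfbr2, at 6.97 FPKM in knockout livers and 10.3 FPKM in wildtype livers (p 0.0536). Matrix receptors had 14 of 16 ratios above 0 and a median of 0.20, which was 0.00 once the summed FPKM was made equal, and Cd44, a hyaluronan receptor, had their smallest p at 2.64 against 1.92 FPKM. Other proteases had a median of 0.19 over 18 tested genes, which was -0.01 under that scaling.

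**Figure D3:**
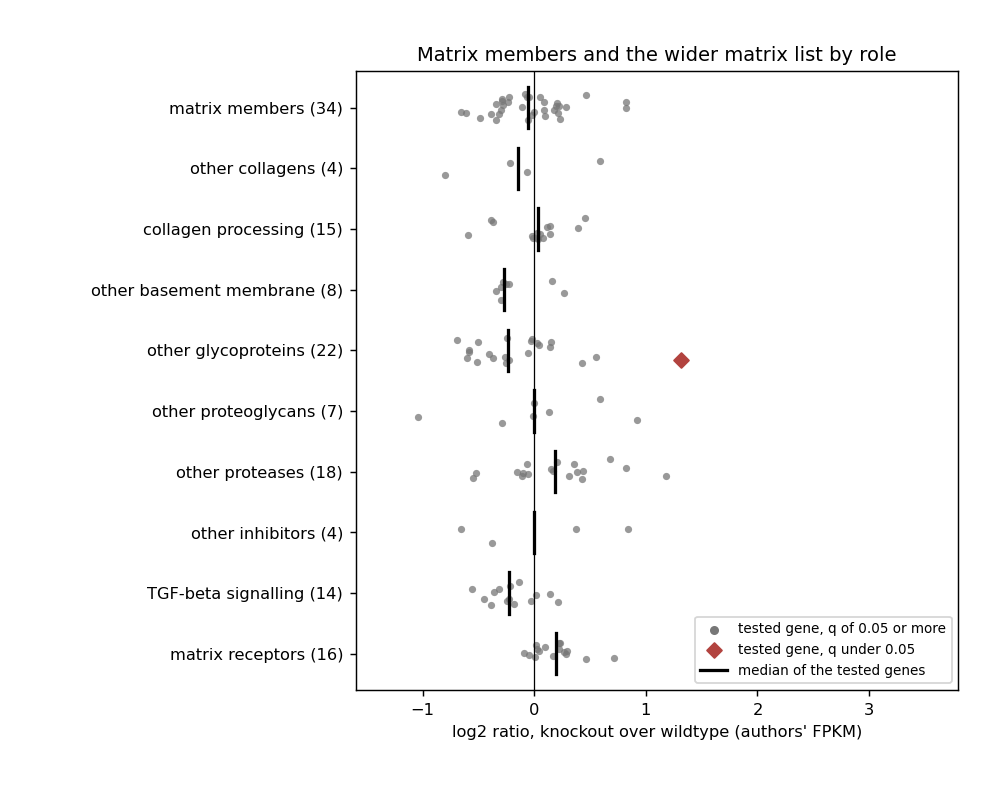
Log2 ratio of each tested gene, for the matrix members and for the 9 roles of the wider list, with the number tested in brackets and the median as a black bar. Of all these genes Spon2 alone, the diamond at 1.31, had a q under 0.05.

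Markers of the cells that make matrix were read beside these values. Over all tested genes 1.08% were called and 50.1% had a ratio below 0. For lists of this size 0 called is near that share of calls. In bulk tissue fewer cells of a type and less RNA per cell cannot be told apart. All 11 hepatic stellate markers were tested, 0 were called, and 9 had ratios below 0 (median -0.23), with a summed level of 82.3 FPKM in knockout livers and 107 FPKM in wildtype livers. With equal summed FPKM their median was -0.43, with 10 below 0. Of all 11456 tested genes with a finite ratio 8841 were below 0 under that scaling. Without Ecm1 the levels of the stellate markers summed to 43.3 and 50.9 FPKM. Their 3 members at an unadjusted p under 0.05 were Reln, Ecm1 and Lrat, the retinol acyltransferase that marks quiescent stellate cells, at 2.28 against 3.56 FPKM. Reln and Ecm1 are on the wider matrix list as well. The 2 stellate markers with ratios above 0 were Des at 2.42 against 2.28 FPKM and Ngfr at 1.21 against 0.927 FPKM. Acta2, smooth muscle actin of myofibroblasts, stood at 1.47 against 1.91 FPKM, and Pdgfrb, a receptor of stellate cells and pericytes, at 1.36 against 1.40 FPKM. The 11 portal fibroblast and myofibroblast markers, Acta2 among them, summed to 23.4 and 21.5 FPKM, and 0 of 8 tested were called. Ratios lay below 0 for 5 of these 8. The 3 above 0 were Tagln at 9.65 against 7.89 FPKM, Myl9 at 4.60 against 4.04 FPKM and Entpd2 at 3.48 against 2.78 FPKM. The 11 sinusoidal endothelium markers summed to 195 and 184 FPKM, with 0 called and 8 ratios below 0. Without Clec4f, which the Kupffer list holds too, they summed to 124 and 133 FPKM, so that the order of the groups turned.

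Markers of leukocytes were higher in the knockout livers. The 8 neutrophil markers summed to 108 FPKM against 6.18 FPKM, with 4 of 7 tested called (background 1.08%). The 10 Kupffer and macrophage markers summed to 522 against 329 FPKM, with 2 of 10 called. Of 5 tested cholangiocyte markers 1 was called, Spp1, osteopontin, which rose from 62.6 to 142 FPKM. The others, Krt7, Krt19, Epcam and Sox9, had log2 ratios of 0.10, 0.10, 0.30 and 0.08. The median of the 5 was 0.10, which was -0.09 with equal summed FPKM. The part of these cell markers in the values of Spon2, Ctss, Reln, Ecm1, Timp3, Ctgf, Eln and Col15a1 was not tested. The labelled tissue was read from its markers. The hepatocyte markers summed to 27558 and 24776 FPKM, with 0 of 7 tested called. Alb, albumin, adds nothing to these sums: it is listed at 0 in both groups with the status HIDATA, which marks a locus with too many reads to process and not an absent transcript. Of the hepatocyte markers Apoa1, an apolipoprotein, stood at 16007 and 11662 FPKM, but intestine makes it too, so it does not separate the tissues. Cyp2e1, a cytochrome P450 on the same list, stood at 2927 and 3412 FPKM. Cdx2, the intestinal transcription factor, stood at 0.0290 and 0.0333 FPKM. The 6 intestinal markers summed to 93.7 and 80.0 FPKM, and 0 of 4 tested were called. Of these 4, 3 had ratios above 0. Tff3 had the smallest p, at 48.8 and 23.9 FPKM (unadjusted p 0.000982, q = 0.0775 in the authors' deposited table). Fabp2, a fatty acid binding protein, was the 1 below 0, at 42.9 and 54.7 FPKM. Of 5 mesothelium markers 1 was tested and 0 were called. The targeted Enpp7 was near the floor in both groups (0.141 and 0.0541 FPKM, not tested) and does not check the genotype labels.

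**Figure D4:**
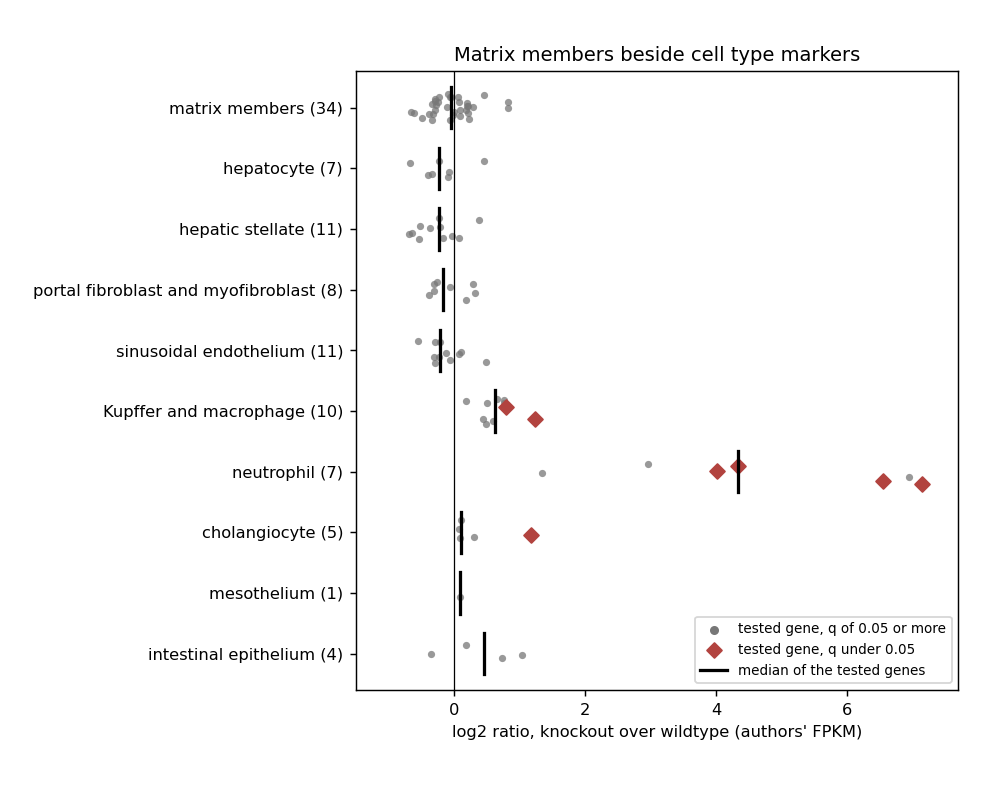
Log2 ratio of each tested gene for the matrix members and for 9 marker lists of liver and other cells, with the number tested in brackets and the median as a black bar. Stellate and sinusoidal endothelium medians stand at -0.23 and -0.21, Kupffer and neutrophil medians at 0.62 and 4.34, and diamonds are genes with a q under 0.05.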

How the data were processed

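Liver RNA of 6 libraries, 3 per group, was sequenced as single-end reads of TruSeq libraries, per the labels' protocols and design text. Per the submitters' processing notes, Bowtie2 (no version) and mm10 were used; the program that made the table and its handling of shared reads are not given in the sources used here. The deposited values are 1 per group. The file headers name no unit, and the values were taken as the authors' FPKM because the layout is that of a Cuffdiff table. The deposited test statistic is a score that matches a normal z (largest p difference 2.63e-06), and the deposited q-value is a Benjamini-Hochberg adjustment of the authors' p-value over 11515 tested genes. The authors' log2 ratio was turned round to knockout over wildtype (largest difference from the log2 of both values 1.29e-05), and the SE is that ratio over z. Read depth is unknown, so no counting interval is given. Whether the libraries are separate animals rests on the numbers in their names.

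No finite ratio exists for 59 tested genes, which are at 0 in a group. Intervals are the ratio ± the normal 95% quantile times the SE. The group letters K and W were read as knockout and wildtype, and the table pools them the same way. The design text speaks of intestine, the labels of liver. Members, lists and pairs were chosen with earlier results of these data known. All members are described; of the wider list the genes named are those called, those at an unadjusted p under 0.05 and the smallest p of each role (for the inhibitors it is not reported here), and genes named beyond these were chosen after their values were seen. Alternatives changed the scaling, the filter on low values, the pseudocount and the threshold; leaving single genes out of a marker sum was chosen after seeing the data. Promoter windows come from RefSeq (GRCm38.p6) and exon overlaps from GENCODE M21 on the same assembly. Tools were Python 3.11.15, pandas 2.3.3, numpy 2.4.6, SciPy 1.17.1 and matplotlib 3.10.9.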

Additional observations from a re-analysis of the deposited data

How the results depend on the processing

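The count of 0 matrix genes called was the same after quantile normalization. It was also 0 with the median of all genes set to 0, with a filter at 1 FPKM, with no filter and at q under 0.1. Those settings had little or no room to change it. The smallest q of a tested member was 0.241 in the authors' deposited table, and the median of all tested genes was -0.0012 before it was set to 0. A 2-fold minimum can only remove calls, so it could not change a count of 0. With both groups scaled to the same summed FPKM 1 matrix gene was called (Timp3, lower). The calls over all tested genes went from 124 to 189 under that scaling, whose sums lack Alb. The median of the members went from -0.05 to -0.25 while that of all tested genes moved by -0.19. The wider list went from 1 called gene to 3 under that scaling (Spon2, Col27a1 and Reln), and to 2 (Spon2 and Col27a1) after quantile normalization, with the 1 FPKM filter and at q under 0.1; its median was -0.20 under the scaling to the same sum. Spon2 passed in all 6 settings in which its q was recomputed or taken as deposited (q from 0.00785 to 0.0391). The ratios of Col15a1, Ctgf, Eln and Timp3 kept their sign under the changes of scaling. Scaling to the same sum shifts every ratio by -0.19, and setting the median to 0 shifts it far less. These ratios lie further from 0 than that, so of the scalings only quantile normalization could have turned a sign. The filters leave a ratio as it is and a pseudocount cannot turn its sign, so those settings say nothing about it. Leaving out single libraries was not run, since the table holds 1 value per group. No paired analysis was possible because of this, and the groups share no library number. The errors of Lox and Timp1, which were not tested, are over 1 on the log2 scale, too wide to describe a change.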

Other observations

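Col27a1, which had q = 0.0502 in the authors' deposited table, lies beside the orosomucoid genes, which encode acute phase glycoproteins of hepatocytes. On chromosome 4 (mm10) Col27a1 runs from 63215412 to 63334990, and Orm1 starts 9575 bases further on, followed by Orm3 and Orm2. Orm1 stood at 2767 FPKM in knockout livers and 827 FPKM in wildtype livers, Orm3 at 16.7 against 1.25 FPKM and Orm2 at 697 against 10.2 FPKM, and all 3 had a q under 0.05 in the authors' deposited table. Col27a1 stood at 3.67 against 6.41 FPKM, in the other direction. The Orm genes are related copies, and how reads shared between genes were handled is not given, so that their single values are uncertain. These neighbours were chosen after their values were seen, and no relation between them was tested.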
